A study of Mus musculus with 8 samples.

Results

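The genes described here are 38 genes of DNA replication and of the passage from G1 into S phase, taken from a list of symbols and matched through their NCBI Gene IDs to the 38920 rows of the deposited tables. All 38 had a row, and all 38 passed the filter on low values. They fall into 6 roles: licensing of origins, activation of the helicase, the replication fork, nucleotide supply, maintenance methylation and chromatin, and G1/S control. RNA was sequenced from sorted gastric epithelial cells of C57BL/6 mice, in 4 libraries from mice on a high fat diet (HFD 22, 23, 26 and 27) and 4 from control mice, titled ND (15-17-18, 16, 19 and 20). No transgene or other treatment is named for either group, and the composition and length of the diet and the age and sex of the mice are not stated in the labels. The labels do not say whether a library came from 1 mouse, and control 15-17-18 may be a pool, so p-values measure the spread between these libraries only, which may be technical.

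A cell prepares to copy its genome in G1, when the origin recognition complex, Cdc6 and Cdt1 load the ring of Mcm2 to Mcm7 onto DNA, a step called licensing. At the start of S phase Cdc45 and the GINS complex turn the loaded ring into a moving helicase, and polymerases, the clamp PCNA, ribonucleotide reductase and thymidylate synthase then build the new strands. Most of these genes are transcribed together by E2F factors once cyclin and Cdk activity has inactivated the retinoblastoma proteins. In the gastric gland, dividing cells sit mainly in the isthmus, whereas parietal and chief cells divide rarely.

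Levels are log2(value + 1), where the value is the authors' normalized value on the linear scale after median-ratio scaling, so that a difference is relative to the typical gene. The estimated depth was 31.4 to 46.0 M reads in HFD and 16.4 to 63.2 M reads in control libraries, lowest in control 19. Control 15-17-18 stood apart: its 20 most abundant rows held 85.7% of the deposited total, against 27.8% to 59.1% in the other 7 libraries, and its scaling factor was 0.176 against 0.677 to 1.37. The main counts are therefore given with and without it. The libraries carried the RNA of the labelled cells, with the mean over 9 pan-epithelial markers at 15.11 to 15.36 in HFD and 15.16 to 15.56 in control. The 9 were Epcam, Cdh1, Krt8, Krt18, Krt19, Cldn18, Tff1, Gkn1 and Muc5ac. Of these, Tff1, Gkn1 and Muc5ac are genes of surface mucous cells, so the list is not strictly pan-epithelial.

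The 38 genes stood higher in HFD as a group, by a modest amount, and none of them passed the test on its own. The mean level over the 38 genes was 9.03, 9.15, 9.18 and 9.04 in HFD 22, 23, 26 and 27, and 8.60, 8.58, 8.46 and 8.79 in control 15-17-18, 16, 19 and 20. The HFD libraries lay close together, and the highest control, control 20, lay below all of them. The mean of the 4 HFD libraries was 9.10 ± 0.074 and that of the 4 controls 8.61 ± 0.14 (SD). The 38 genes were chosen with earlier results of these data known, so the counts that follow are descriptive and no test was made over the list. Genes measured in the same libraries are also not independent of one another. All 38 differences (HFD minus control) were positive, against 59.9% of the 27401 rows tested, and their median was 0.49 on the log2 scale, a 1.40-fold difference, against 0.12 over all rows. Among the 13209 rows in the same range of mean level, 6.13 to 11.88, the median difference was 0.064. For 20 of the 38 genes every HFD library lay above every control, against 4.72% of all rows tested, and 27 had an unadjusted limma p under 0.05 with the higher level in HFD, against 6.43% of all rows. After Benjamini-Hochberg adjustment over all rows limma called 0 of the 38, with adjusted p from 0.188 to 0.998, where 0.0109% of all rows were called. More dividing cells among the sorted cells and more of these RNAs in each cell cannot be told apart in bulk libraries.

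**Figure D1:**
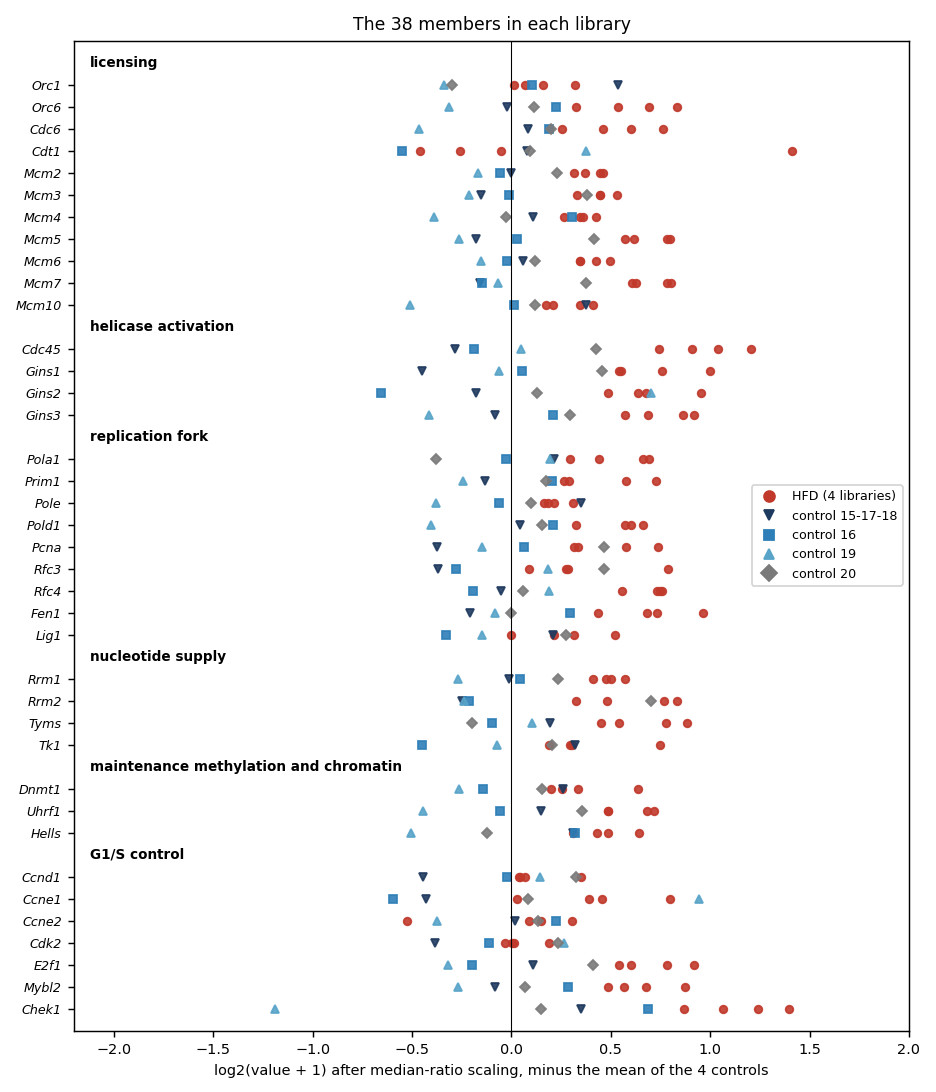
Level of each of the 38 genes in each library, as log2(value + 1) after median-ratio scaling minus the mean of the 4 control libraries, grouped by role; red points are the 4 HFD libraries and the other symbols the 4 controls. For 20 genes all red points lie to the right of all control points, while Cdt1, Orc1, Ccnd1, Ccne2 and Cdk2 show the groups mixed.

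The scale changed the size of the differences and the separation of the groups more than their sign. On the scale the authors deposited, the mean over the 38 genes was 9.11 to 9.44 in HFD and 6.11, 9.03, 7.90 and 8.80 in control 15-17-18, 16, 19 and 20. The groups did not overlap there either, but the controls were spread widely, with control 15-17-18 far below the rest. As deposited all 38 differences were positive (89.9% of rows) and their median was 1.35, beside 0.90 over all rows. After quantile normalization 36 were positive (52.7% of rows) and the median was 0.46, beside 0.031. The margin between the 38 genes and all rows was 0.37, 0.45 and 0.43 on the median-ratio, deposited and quantile scales. Every HFD library lay above every control for 13 genes as deposited (7.82% of all rows) and for 12 after quantile normalization (2.6%), and 10 genes were separated both as deposited and after median-ratio scaling. An unadjusted limma p under 0.05 on the higher side was reached by 12 genes as deposited (9.25% of rows) and by 17 after quantile normalization (4.09%). None of the 38 was called on either scale, where limma called 0.0584% and 0.0109% of rows.

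**Figure D2:**
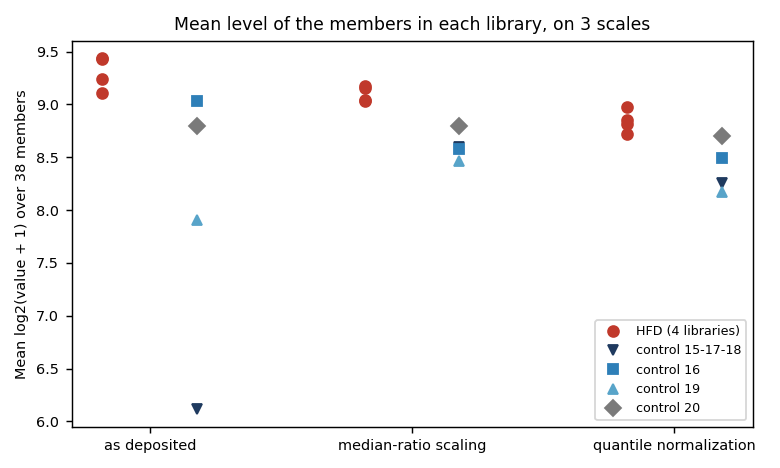
Mean log2(value + 1) over the 38 genes in each library on the deposited, median-ratio and quantile scales; red points are the 4 HFD libraries and the other symbols the 4 controls. On each scale the 4 HFD points lie above the 4 controls, and control 15-17-18 at 6.11 is far below the others only as deposited.

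The control libraries varied more than the HFD libraries. The SD in control exceeded the SD in HFD for 33 of the 38 genes, with a median SD of 0.31 in control and 0.18 in HFD. A wider control spread was not particular to these genes. Among the cell type marker lists described below, the mean level had an SD of 1.22 in control and 0.41 in HFD for squamous markers. It was 0.81 and 0.19 for endothelial markers, but 0.265 and 0.271 for parietal and 0.41 and 0.48 for leukocyte markers. Control 19 was the lowest of all 8 libraries for 20 genes, and control 15-17-18 for 9. Control 20 was the highest control for 17 genes and reached the lowest HFD library for 11. Within HFD the highest of all 8 libraries was most often HFD 26 (14 genes) or HFD 23 (13 genes). Leaving out control 15-17-18 left the median at 0.48 with 23 genes separated (5.56% of rows), 35 positive differences in place of 38 and 22 genes at an unadjusted limma p under 0.05 on the higher side. Leaving out control 19 gave 0.41 with 21 (9.36% of rows) and narrowed the margin over all rows from 0.37 to 0.24. Without HFD 26 the count of genes at an unadjusted limma p under 0.05 on the higher side was 16 in place of 27. Without both control 15-17-18 and control 19, an alternative chosen after seeing the data, the median was 0.32, beside 0.14 over all rows, and 24 genes were separated, where 12.8% of rows were. In that fit 35 differences were positive (60.8% of rows) and 14 genes had an unadjusted limma p under 0.05 on the higher side (6.02% of rows), and limma called 0 of all rows.

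The promoters of these genes were read because E2F factors bind many of them and all 38 differences had the same sign here. RefSeq start sites on GRCm38.p6 gave windows of 250 bases before to 50 bases after the start for 32 of the 38 genes; Pole, Gins1, Gins2, Ccnd1, Mcm4 and Ccne2 had none. The E2F letters searched, on both strands, were TTTCCCGC, TTTCGCGC, TTTGCCGC and TTTGGCGC. They occurred in the windows of 16 of the 32 genes (50%), against 704 of 27025 genes with a window (2.6%). These are stretches around the letters, in the orientation of the gene, with the E2F letters in capitals. The first 5 are from windows where the stretch lies outside annotated exons, and 4 shorter ones follow from genes described below, of which Orc1 and Cdk2 hold the letters but differed little between the groups.
Mcm5, chr8:75109330-75109389, plus strand: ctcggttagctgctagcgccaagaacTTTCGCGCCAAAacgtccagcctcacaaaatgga
Mcm6, chr1:128359778-128359837, minus strand: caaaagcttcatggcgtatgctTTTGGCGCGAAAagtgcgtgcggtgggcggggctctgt
Cdc6, chr11:98907987-98908046, plus strand: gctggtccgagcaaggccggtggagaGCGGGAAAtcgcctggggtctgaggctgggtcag
Pola1, chrX:93632260-93632319, minus strand: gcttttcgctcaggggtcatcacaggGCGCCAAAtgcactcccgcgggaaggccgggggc
Uhrf1, chr17:56304102-56304161, plus strand: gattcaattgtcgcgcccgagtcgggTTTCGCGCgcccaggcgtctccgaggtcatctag
Mcm7, chr5:138172031-138172058, minus strand: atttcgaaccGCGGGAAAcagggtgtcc
Gins3, chr8:95633508-95633535, plus strand: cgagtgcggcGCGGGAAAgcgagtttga
Orc1, chr4:108579417-108579444, plus strand: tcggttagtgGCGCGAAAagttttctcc
Cdk2, chr10:128705174-128705201, minus strand: accaggaactGCGGGAAAgttgtgcagc

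In Mcm5 and Mcm6 the capitals run over 12 bases because matches on the 2 strands overlap. The 23 matches in the 16 genes lay on both sides of the start site: 8 after it, and 5 within the 100 bases before it. The letters did not sort the genes by their difference. The median difference was 0.45 for the 16 genes with the E2F letters, 8 of them with separated groups, and 0.60 for the 16 without them, 11 of them separated. The CCAAT box (CCAAT, both strands) occurred in 19 of the 32 windows (59.4%, against 41.1% of all genes), and the GC box GGGCGG in 25 (78.1%, against 38.2%). The CHR element TTTGAA, known from genes of late cell cycle phases, occurred in 5 (15.6%, against 20.2%). E2F letters and CCAAT were found together in 11 of the 32, against 1.26% of all genes. The windows of these genes were richer in G and C than those of all genes, with a median of 58.3% against 52.7% and a median of 22 against 7 CpG. No correction for base composition was made.

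Licensing comprised 11 genes, of which 6 had separated groups, with a median difference of 0.40. Mcm7, a subunit of the helicase ring (chromosome 5, 138164583 to 138172111, GRCm38), was at 10.14, 10.34, 10.31 and 10.16 in HFD 22, 23, 26 and 27 and at 9.37, 9.38, 9.46 and 9.91 in control 15-17-18, 16, 19 and 20. All HFD libraries lay above the controls, and control 20 lay well above the other 3 controls. The difference was 0.70 ± 0.14 (SE), 1.63-fold, with the lowest limma adjusted p of the 38 genes, 0.188. Mcm5 (chromosome 8, 75109468 to 75128439) was at 11.05, 11.28, 11.26 and 11.10 in HFD and 10.30, 10.51, 10.21 and 10.90 in control, in the same order of libraries. Again the groups were apart and control 20 came nearest to HFD. Its difference was 0.69 ± 0.15 (limma adjusted p = 0.205). Mcm6 (chromosome 1, 128331575 to 128359705) was at 11.07, 11.07, 11.15 and 11.22 in HFD and 10.78, 10.70, 10.58 and 10.85 in control. The controls of Mcm6 lay close together, all below HFD. The difference was 0.40 ± 0.10 (limma adjusted p = 0.245).

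Mcm2 had separated groups as well, at 0.40 ± 0.11, whereas in Mcm3 (0.44 ± 0.14) and Mcm4 (0.35 ± 0.15) 1 control reached into HFD: control 20 at 11.10 against 11.05 in HFD 26 for Mcm3, and control 16 at 9.83 against 9.79 in HFD 22 for Mcm4. The difference of Mcm4 was 0.22 without control 19. The 6 subunits form a ring with 1 copy of each, so their levels can be set side by side per length of exon. On the scale log2(value per exonic kb), the means over 8 libraries were 9.34 for Mcm3, 9.03 for Mcm5, 8.83 for Mcm2, 8.80 for Mcm6, 8.32 for Mcm7 and 7.86 for Mcm4. Mcm2 and Mcm6, neighbours in this order, differed by less than the spread between libraries, and Mcm4 was the lowest in 7 of 8 libraries, the exception being control 16. The differences between HFD and control ran from 0.35 to 0.70 over the 6 subunits, and 4 of them had separated groups.

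**Figure D3:**
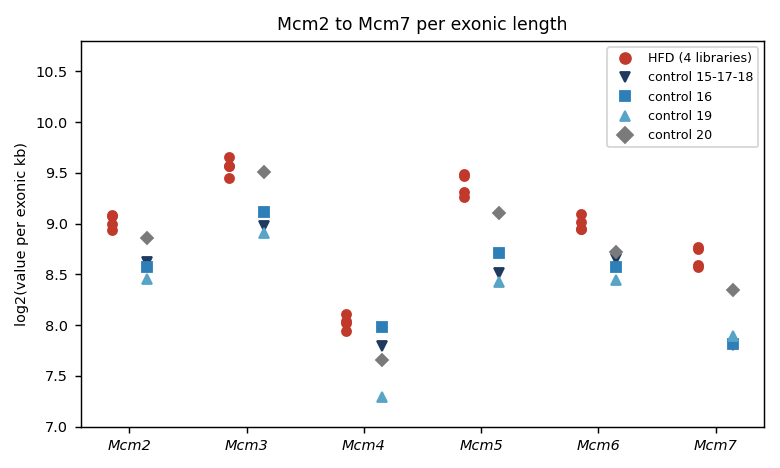
Level of Mcm2 to Mcm7 per kilobase of exon, as log2(value per exonic kb) after median-ratio scaling, in each library; red points are HFD and the other symbols the 4 controls. Mcm4 is lowest at a mean of 7.86 and Mcm3 highest at 9.34, and control 20 is the control nearest to HFD for Mcm2, Mcm3, Mcm5, Mcm6 and Mcm7.

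The loaders of the ring differed less evenly. Cdc6, the loading ATPase (0.52 ± 0.20), and Orc6, a subunit of the origin recognition complex (0.60 ± 0.22), had separated groups, with limma adjusted p of 0.419 and 0.377. Orc1, the large subunit of that complex (chromosome 4, 108575705 to 108616030) and the lowest of the 38 genes in mean level, was at 6.13, 6.07, 6.22 and 6.38 in HFD and 6.60, 6.16, 5.72 and 5.76 in control. The groups overlapped, with control 15-17-18 highest. The difference of 0.14 ± 0.31 (limma adjusted p = 0.882) became -0.00154 after quantile normalization and ran from 0.025 without control 19 to 0.29 without control 15-17-18. Cdt1, which carries the ring to the origin, was at 9.0 in HFD 23 and at 7.13 to 7.54 in the other HFD libraries, against 7.04 to 7.97 in control. Its difference of 0.16 ± 0.40 was -0.25 without HFD 23 and -0.029 without control 16, so its sign depended on the libraries included. Mcm10, which helps the helicase start, differed by 0.28 ± 0.19 with control 15-17-18 inside the HFD range, and by 0.12 without control 19.

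The activators of the helicase showed the highest median of the 6 roles, 0.74 over 4 genes, 3 of them with separated groups. Cdc45, which joins the ring to make the active helicase (chromosome 16, 18780447 to 18811972), was at 7.97, 8.43, 8.26 and 8.13 in HFD and 6.94, 7.04, 7.28 and 7.65 in control. Every HFD library was above every control. The difference was 0.97 ± 0.21, 1.96-fold (limma adjusted p = 0.205). Gins3, a subunit of the GINS complex (chromosome 8, 95633559 to 95645059), was at 6.36, 6.66, 6.71 and 6.48 in HFD and 5.71, 6.0, 5.38 and 6.09 in control. The groups were apart, but at low levels, with an estimated 12.2 reads in control 19. The difference was 0.76 ± 0.29 (limma adjusted p = 0.398). Gins1 (chromosome 2, 150909556 to 150931280) was at 6.60, 7.05, 6.59 and 6.81 in HFD and 5.60, 6.11, 5.99 and 6.51 in control, with an estimated 12.1 reads in control 15-17-18. Control 20 lay just below the lowest HFD libraries. The difference was 0.71 ± 0.29 (limma adjusted p = 0.425). Gins2, also of the GINS complex, differed by 0.69 ± 0.29, and control 19 at 7.81 lay within the HFD range of 7.59 to 8.06. Gins2 shares 118 bases with Gse1, whose own level differed the other way after median-ratio scaling, at -0.77 ± 0.11 (limma adjusted p = 0.0943). Whether the counting used strand is not given in the sources used here, so reads of overlapping genes could not be told apart.

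At the replication fork 5 of 9 genes had separated groups, with a median of 0.49, which was 0.25 without both control 15-17-18 and 19. Fen1, the nuclease that trims Okazaki fragments (chromosome 19, 10199132 to 10204393), was at 10.10, 9.85, 10.15 and 10.38 in HFD and 9.21, 9.71, 9.33 and 9.41 in control. Control 16 was the control nearest to HFD. The difference was 0.70 ± 0.15 (limma adjusted p = 0.205). Rfc4, a subunit of the clamp loader (chromosome 16, 23113948 to 23127730), was at 7.54, 7.73, 7.74 and 7.72 in HFD and 6.93, 6.79, 7.17 and 7.04 in control. The lowest HFD library lay well clear of the highest control. The difference was 0.70 ± 0.18 (limma adjusted p = 0.255). Pold1, the catalytic subunit of polymerase delta (chromosome 7, 44532744 to 44548815), was at 9.26, 8.93, 9.18 and 9.20 in HFD and 8.65, 8.81, 8.20 and 8.76 in control. The groups were apart, by a narrow margin between HFD 23 and control 16. The difference was 0.54 ± 0.17 (limma adjusted p = 0.304).

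Pola1 and Prim1, which lay down the primers, differed by 0.52 ± 0.17 and 0.46 ± 0.17 with separated groups. Pcna, the sliding clamp, differed by 0.49 ± 0.19, and control 20 at 9.89 lay above HFD 22 and 27. Rfc3, another clamp loader subunit (0.36 ± 0.23), the DNA ligase Lig1 (0.26 ± 0.17) and the catalytic subunit of polymerase epsilon, Pole (0.22 ± 0.16), had overlapping groups. For Pole control 15-17-18 was the highest of all 8 libraries at 9.40. Leaving out 1 library took Pole to 0.091 (without control 19), Lig1 to 0.15 (without control 16) and Rfc3 to 0.21 (without control 15-17-18) and 0.22 (without HFD 26).

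Nucleotide supply comprised 4 genes with a median of 0.55, of which 2 had separated groups. Rrm1, the large subunit of ribonucleotide reductase (chromosome 7, 102441695 to 102469771), was at 10.94, 11.10, 11.00 and 11.03 in HFD and 10.51, 10.57, 10.26 and 10.76 in control. The HFD libraries lay within a narrow band above all controls. The difference was 0.49 ± 0.12 (limma adjusted p = 0.242). Rrm2, the small subunit (chromosome 12, 24708254 to 24714146), was at 9.66, 9.95, 10.02 and 9.51 in HFD and 8.93, 8.97, 8.94 and 9.89 in control. Control 20 lay within the HFD range and the other 3 controls far below it. The difference was 0.60 ± 0.23 (limma adjusted p = 0.405). Tyms, thymidylate synthase (chromosome 5, 30038546 to 30073645), was at 8.20, 8.43, 8.54 and 8.11 in HFD and 7.85, 7.56, 7.76 and 7.46 in control. The groups were apart, and control 20 was the lowest library here. The difference was 0.66 ± 0.17 (limma adjusted p = 0.253). Tk1, the salvage enzyme thymidine kinase, differed by 0.39 ± 0.20 with overlapping groups, and by 0.23 without control 16.

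The genes that carry DNA methylation through S phase were at a median of 0.47, with 1 of 3 separated. That median was 0.30 without control 19. Uhrf1, which reads hemimethylated DNA and recruits Dnmt1 (chromosome 17, 56303337 to 56323486), was at 10.15, 10.38, 10.35 and 10.15 in HFD and 9.81, 9.61, 9.22 and 10.02 in control. All HFD libraries were above the controls. The difference was 0.59 ± 0.17 (limma adjusted p = 0.283). Dnmt1, the maintenance methyltransferase (chromosome 9, 20907206 to 20959888) and the highest of the 38 genes in mean level, was at 11.90, 12.34, 12.04 and 11.96 in HFD and 11.96, 11.56, 11.44 and 11.86 in control. Control 15-17-18 lay level with HFD 27 and above HFD 22. The difference was 0.36 ± 0.15 (limma adjusted p = 0.444). Hells, a chromatin remodeller needed for methylation (chromosome 19, 38930262 to 38970470), was at 8.43, 8.76, 8.61 and 8.55 in HFD and 8.43, 8.44, 7.61 and 8.0 in control. The groups met at the edge, with control 16 just above HFD 22. The difference was 0.47 ± 0.21 (limma adjusted p = 0.470), and 0.30 without control 19.

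G1/S control was the most mixed role, with a median of 0.42 over 7 genes, 3 of them separated. That median was 0.25 without control 15-17-18 and 0.21 without control 16. Mybl2, a transcription factor of proliferating cells (chromosome 2, 163054327 to 163084688), was at 8.92, 8.61, 8.72 and 8.53 in HFD and 7.96, 8.32, 7.78 and 8.11 in control. The groups were apart. The difference was 0.65 ± 0.17 (limma adjusted p = 0.248). E2f1, an activating E2F factor (chromosome 2, 154559400 to 154569892), was at 7.67, 7.91, 8.04 and 7.73 in HFD and 7.23, 6.92, 6.80 and 7.53 in control. Control 20 was the nearest control and still below every HFD library. The difference was 0.71 ± 0.22 (limma adjusted p = 0.302). Chek1, the kinase of the replication checkpoint (chromosome 9, 36708482 to 36726658), was at 7.0, 6.63, 7.15 and 6.82 in HFD and 6.11, 6.44, 4.57 and 5.90 in control. All controls were below HFD, and control 19, with an estimated 6.82 reads, was far below the rest. The difference of 1.14 ± 0.41 (limma adjusted p = 0.374) was the largest of the 38 with all libraries, and 0.75 without control 19.

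The cyclins and their kinase stood apart from these 3. Ccne1 (cyclin E1) differed by 0.42 ± 0.33, with control 19 the highest of all 8 libraries at 8.85. Without control 19 it was 0.73, without control 15-17-18 0.25 and without control 16 0.21. Ccnd1 (cyclin D1), which answers to growth factors, differed by 0.12 ± 0.16 and by -0.053 without control 15-17-18. Cdk2, the partner of cyclin E, differed by 0.044 ± 0.16, with HFD at 10.02 to 10.24 and control at 9.67 to 10.32, and by -0.11 without control 15-17-18. Ccne2 (cyclin E2) was at 6.26 to 7.09 in HFD and 6.41 to 7.01 in control, a difference of 0.0036 ± 0.27. For these 4 genes the groups overlapped, and the sign of the last 3 depended on which library was left out.

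**Figure D4:**
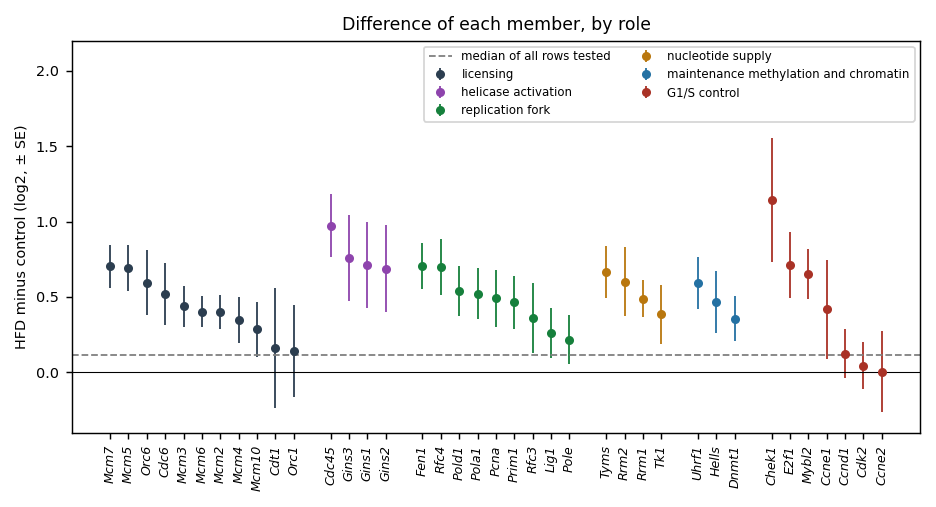
Difference of each of the 38 genes (HFD minus control, log2 after median-ratio scaling), with bars of ± 1 SE from limma, coloured by role; the dashed line is the median of all rows tested, 0.12. Cdc45 and the GINS genes lie between 0.69 and 0.97, and Ccnd1, Cdk2 and Ccne2 lie at or below 0.12.

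Of the 32 genes with a promoter window, 6 share a start region with a neighbour, which allows the pair to be set side by side. The start of Mcm7 lies 138 bases from that of Ap4m1 on the other strand, and Ap4m1 differed by 0.063 ± 0.14 against 0.70 ± 0.14 for Mcm7. Cdc45 and Ufd1 start 322 bases apart, with Ufd1 at 0.10 ± 0.15 against 0.97 ± 0.21. In these 2 pairs the neighbour stood near the median of all rows. Fen1 and Tmem258 start 281 bases apart, and Tmem258 differed by 0.80 ± 0.48, with overlapping groups. In the other 3 pairs the neighbour differed more than the member for Orc1 (Prpf38a at 0.37 ± 0.22 against 0.14 ± 0.31), and less for Tk1 (Afmid at -0.19 ± 0.17 against 0.39 ± 0.20) and Lig1 (Zswim9 at 0.021 ± 0.33 against 0.26 ± 0.17). The difference between the partners of a pair was not tested. In all, 18 of the 38 genes overlap another annotated gene, 12 of them one that was tested. Cdk2 shares 7114 bases with Pmel, Ccne2 5622 with Ints8 and Orc1 3632 with Prpf38a. Rfc4 shares 185 bases with Eif4a2, which was at 12.10 to 14.63 against 6.79 to 7.74 for Rfc4. The limit on overlapping genes given for Gins2 applies to these too. Mir25 and Mir106b, encoded within Mcm7, were at 0 to 2.49 and 0 to 2.2, too low to compare.

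The rest of the replication machinery, 43 genes outside the 38, showed a smaller median of 0.33. Of these genes 40 had positive differences (59.9% of all rows) and 13 had separated groups (4.72% of all rows). An unadjusted limma p under 0.05 with the higher level in HFD was reached by 18 (6.43% of all rows), and 0 were called (0.0109% of all rows). Rpa2, a subunit of the protein that coats single-stranded DNA, was at 8.70 to 9.59 in HFD and 8.0 to 8.22 in control, a difference of 0.89 ± 0.20 (limma adjusted p = 0.206). Dtymk, thymidylate kinase, differed by 0.76 ± 0.20 and the clamp loader subunit Rfc2 by 0.58 ± 0.15, each with separated groups. Top1, a topoisomerase, and Chaf1a, a histone chaperone, were lower in HFD after median-ratio scaling, by values within their spread (-0.24 ± 0.19 and -0.11 ± 0.17), and higher as deposited (0.62 and 0.75). The median of all rows as deposited was 0.90.

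Brakes and switches of G1/S, 32 genes outside the 38, were divided evenly, with 16 differences of each sign and a median of 0.023, which was -0.071 without control 20, 0.11 without control 15-17-18, 0.056 without control 16, 0.065 without HFD 26 and 0.011 without HFD 27. Limma called 0 of them (0.0109% of all rows). An unadjusted limma p under 0.05 was reached by 7 on the higher side (6.43% of all rows) and 2 on the lower (4.09%). Wholly above the controls lay 4 (4.72% of all rows), and wholly below 2 (3.12%). Trp53, the gene of p53, was at 9.40 to 9.58 in HFD and 8.96 to 9.24 in control, a difference of 0.40 ± 0.12 (limma adjusted p = 0.295). Fbxw7, which marks cyclin E for destruction, and Cdc25a, a phosphatase that activates Cdk2, had every HFD library below every control, at -0.32 ± 0.11 and -0.33 ± 0.12 (limma adjusted p = 0.357 and 0.365), but were higher in HFD as deposited, at 0.54 and 0.53. All rows as deposited had a median of 0.90. Myc was at 10.30 to 10.72 in HFD and at 10.08, 10.04, 12.13 and 11.79 in control 15-17-18, 16, 19 and 20, so the controls divided into high and low libraries on either side of HFD. Its difference was -0.46 ± 0.49, and 0.40 as deposited. Cdkn2a, an inhibitor of Cdk4 and Cdk6, was near the floor at 1.46 to 4.39, and its difference of -0.44 ± 0.81 was 0.24 as deposited.

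Genes of mitosis and G2/M, 27 in all, had a median of 0.61, with 25 positive differences (59.9% of all rows) and 14 with separated groups (4.72% of all rows). An unadjusted limma p under 0.05 on the higher side was reached by 18 (6.43% of all rows), and 0 were called (0.0109% of all rows). Ccna2, the cyclin of S and G2 phase, was at 10.02, 10.13, 10.28 and 9.91 in HFD and 9.27, 9.36, 9.18 and 9.42 in control (limma adjusted p = 0.108), and Kif20a and Bub1b, of the mitotic spindle and its checkpoint, also had separated groups (limma adjusted p = 0.155 and 0.170). Mki67, the usual marker of cycling cells, was at 11.80 to 12.06 in HFD and at 13.02, 11.94, 11.51 and 11.38 in control 15-17-18, 16, 19 and 20. Control 15-17-18 was the highest of all 8 libraries for Mki67, unlike for most of the 38 genes. Its difference was -0.055 ± 0.32, and 0.27 without control 15-17-18. The mitotic kinase Plk1 differed by -0.069 ± 0.15 after median-ratio scaling and by 0.79 as deposited, beside a median of 0.90 over all rows.

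**Figure D5:**
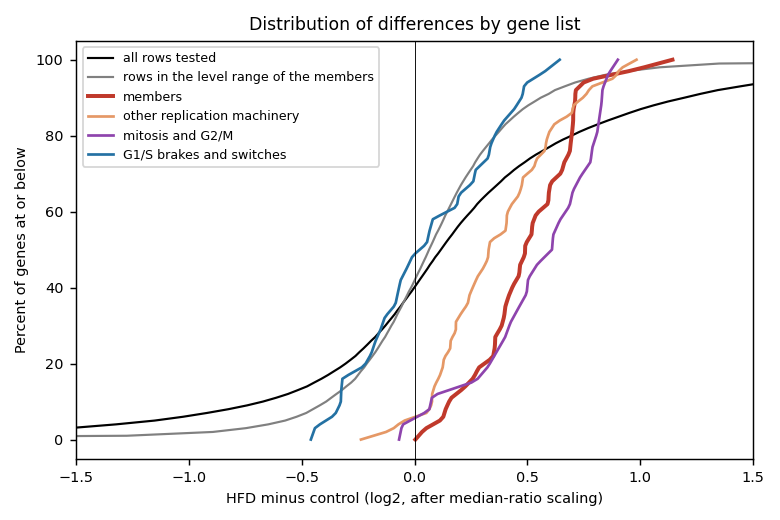
Cumulative distribution of the differences (HFD minus control, log2 after median-ratio scaling) for all 27401 rows tested, the 13209 rows in the range of mean level of the 38 genes, the 38 genes and 3 lists of other genes; the vertical axis is the percent of genes at or below a difference. The curve of the 38 genes lies wholly to the right of 0 with a median of 0.49, and that of the G1/S brakes and switches follows the 13209 rows, with a median of 0.023.

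Markers of some other cell types were also at higher levels in HFD. These lists were chosen with earlier results of these data known, so their p-values are descriptive. Of 10 markers of squamous forestomach epithelium, 9 had positive differences, and their mean level was 6.58 to 7.41 in HFD and 4.05, 4.31, 6.18 and 6.38 in control 15-17-18, 16, 19 and 20 (exact two-sided permutation p = 0.0286, 0.143 adjusted over 10 lists; 0.0286 is the smallest p that 70 divisions allow). The keratins Krt5 and Krt14 of its basal layer were above 0 in all 8 libraries, whereas Sprr3 was at 0 in HFD 23, control 15-17-18 and control 20, and Lor in control 19. Control 19 and 20 came nearest to HFD in squamous level. Markers of fibroblasts and smooth muscle were at 8.39 to 9.05 in HFD and 6.41 to 8.61 in control (11 of 12 positive; exact permutation p = 0.0857, adjusted 0.214). In that list Acta2, Actg2, Myh11, Des, Cnn1 and Tagln had separated groups, at 1.10 to 2.71, where 4.72% of all rows were separated. For the other genes the groups overlapped. Col1a1, Col3a1 and Col1a2 differed by -0.14, 0.11 and 0.27, and Pdgfra, Dcn and Lum by 0.46, 0.82 and 2.05. Chief cell markers were at 12.17 to 12.93 in HFD and 11.27 to 12.06 in control (6 of 6 positive; exact permutation p = 0.0286, adjusted 0.143). Their groups overlapped on the other scales. As deposited control 16 was at 12.509 and HFD 26 at 12.425, and after quantile normalization control 16 was at 12.09 and HFD 23 at 12.04 (exact permutation p = 0.0571 on each). Squamous groups stayed apart as deposited (exact permutation p = 0.0286) but overlapped after quantile normalization, with control 20 at 6.47 and HFD 23 at 6.14 (exact permutation p = 0.143). Leukocyte markers stood at 2.77 to 3.77 in HFD and 2.26 to 3.10 in control (8 of 11 positive; exact permutation p = 0.0857, adjusted 0.214). Among the leukocyte markers, Cd3e, Ms4a1, Lyz2, Adgre1 and Cd52 were at 0 in at least 1 library, and Adgre1, Itgam and Cd68 had negative differences. Ptprc, the pan-leukocyte CD45, was at 6.65 to 6.96 in HFD and 5.06 to 7.65 in control, highest in control 15-17-18. Markers of gastric progenitors and mucous neck cells were at 11.02 to 11.44 in HFD and 10.93 to 11.95 in control (5 of 9 positive; exact permutation p = 0.686, adjusted 0.762). Within that list Lgr5 differed by 0.61 ± 0.32, Sox9 by -0.58 ± 0.22 and Cd44 by -1.95 ± 1.01. Parietal cell markers (11.28 to 11.83 in HFD, 11.25 to 11.86 in control, exact permutation p = 0.80), endothelial markers (7.61 to 8.03 and 6.69 to 8.56, p = 0.600), pancreatic acinar markers (7.95 to 8.57 and 6.58 to 8.60, p = 0.171) and erythroid markers (6.55 to 8.09 and 5.50 to 7.75, p = 0.429, 4 of 5 with a row) overlapped between the groups. So did the pan-epithelial markers given above (exact permutation p = 0.114), but not each of them. Epcam lay wholly above the controls (0.68 ± 0.14), and Cdh1 (-0.43 ± 0.12) and Muc5ac (-1.61 ± 0.35) wholly below (limma adjusted p = 0.201, 0.281 and 0.205). The groups overlapped for the other genes of that list. Among the pancreatic acinar markers, Clps (1.30 ± 0.25) and Try5 (1.38 ± 0.35) lay wholly above the controls (limma adjusted p = 0.181 and 0.248). Cela2a, Cpa1 and Cel of the acinar list had negative differences, with overlapping groups. Of all rows 4.72% lay wholly above and 3.12% wholly below. The part of these cell types in the differences of the 38 genes was not tested.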

How the data were processed

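RNA was measured in 8 libraries of sorted gastric epithelial cells, grouped by their titles. Total RNA was freed of ribosomal RNA and made into Ion Total RNA-Seq libraries, per the labels' protocols, so RNA without a poly(A) tail was also sequenced. The submitters' processing notes name mm10 and bedtools 2.17.0. For the aligner, annotation and normalization the entry is "not given in the sources used here". The authors deposited 1 table per library of log2 values floored at 0, whose antilogs sum to 36.9 M in each library within 0.0039%, so they were read as log2 normalized values. Depth was estimated from the smallest steps of the values. Only 25.1% to 35.0% of values below 2000 steps were whole within 0.01, so reads were not recovered and no count model was fitted.

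Values were put on the linear scale, divided by median-ratio factors (11115 rows above 30 in all 8 libraries) and taken as log2(value + 1), which understates differences of low genes. Rows reaching a value of 1 in 4 or more libraries (27401) were fitted with limma 3.58.1 (trend and robust, R 4.3.3) on the group alone, with Benjamini-Hochberg adjustment over all rows (threshold 0.05). The script was tested on simulated data. Row IDs were matched to RefSeq genes of GRCm38.p6 (32891 rows), the assembly of mm10. Exonic lengths are unions of GENCODE exons on GRCm38.

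The members and lists were chosen with earlier results of these data known, so the members and the other gene lists were not tested as lists. The marker lists were tested, and their p-values carry that limit. Values in every library are given for the 3 members with the smallest p in each role and for the highest and lowest level, with any member of negative difference (there was none). From each other gene list the 3 genes with the smallest p, the 2 lowest differences and Mki67 are named. Other genes named were chosen after their values were seen. Mean levels of 10 marker lists (pan-epithelial, parietal, chief, progenitor and neck, squamous, leukocyte, endothelial, fibroblast and smooth muscle, pancreatic acinar, erythroid) were compared by an exact permutation test. Alternatives were the deposited scale, quantile normalization, a pseudocount of 32, no filter, a filter of 30, limma without trend and robust options, array weights, and leaving out each library.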

Additional observations from a re-analysis of the deposited data

Results flagged for a closer look

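In each of the 76 groups of 4 libraries formed by the 38 genes and the diets, the most extreme library was compared with the rest by Dixon's ratio, with its critical value for 4 samples as the limit. Chance alone flags about 5% of groups, and 4 groups were beyond the limit here. Control 20 was the high library for Mcm7, at 9.910 against 9.37 to 9.46 in the other 3 controls, and for Rrm2, at 9.886 against 8.93 to 8.97. Without control 20 the difference of Mcm7 was 0.83, beside 0.70 with it, and that of Rrm2 was 0.83, beside 0.60. HFD 22 was low for Rfc4, at 7.541 against 7.72 to 7.74 in the other HFD libraries, and still above every control. HFD 23 was high for Ccnd1, at 11.96 against 11.65 to 11.68.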

How the results depend on the processing

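Limma called 0 of the 38 members under each alternative run. The median difference of the members was 0.49, 1.35 as deposited, 0.32 without both control 15-17-18 and control 19 (an alternative chosen after seeing the data) and 0.41 to 0.56 with 1 library left out. Its margin over the median of all rows was 0.37, with 0.24 to 0.50 on leaving out a library and 0.19 without both. The 20 members with separated groups became 13 as deposited and 12 after quantile normalization. The 27 members at an unadjusted limma p under 0.05 became 12 as deposited, 17 after quantile normalization, 14 without both and 16 to 24 with 1 library left out. The shares of all rows on the higher side were 6.43%, 9.25%, 4.09% and 6.02% in the first 4 of these fits, and are not given for leaving out 1 library. Over all rows limma called 3, against 16 as deposited, 21 with array weights, 0 without both and 0 to 4 with 1 library left out.

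Some signs changed. After quantile normalization Orc1 was at -0.00154, Ccne2 at -0.10, Mki67 at 0.016, pan-epithelial markers at 0.12 and parietal markers at 0.011. With array weights Cdt1 was at -0.15, Chaf1a at 0.097 and Mki67 at 0.046. As deposited Top1 was at 0.62, Chaf1a at 0.75, Fbxw7 at 0.54, Cdc25a at 0.53, Myc at 0.40, Cdkn2a at 0.24, Plk1 at 0.79, Mki67 at 0.80, and pan-epithelial, parietal and progenitor and neck markers at 0.65, 0.80 and 0.73. The median of all rows as deposited was 0.90, above each of these values, so relative to all rows these genes and lists stayed on the lower side. Without both controls Ccnd1 was at -0.069, Ccne2 at -0.22, Cdk2 at -0.058, Chaf1a at 0.10, Cdkn2a at 0.063, Plk1 at 0.022 and Mki67 at 0.21. Leaving out 1 library gave ranges of -0.25 to 0.37 for Cdt1, -0.053 to 0.23 for Ccnd1, -0.12 to 0.19 for Ccne2, -0.11 to 0.13 for Cdk2, -0.18 to 3.496e-05 for Plk1, -0.25 to 0.27 for Mki67, -0.17 to 0.030 for parietal, -0.29 to 0.053 for progenitor and neck and -0.046 to 0.58 for endothelial markers. The cause of these changes was not tested.

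No paired analysis was possible because the groups share no replicate numbers. Depth limits the lowest members: 4 had under 20 estimated reads in some library.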
